A study of Mus musculus with 4 samples.

Results

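Ceramide and barrier lipid synthesis was followed through 38 genes, chosen by symbol from the pathways of sphingolipid synthesis, elongation of very long chain fatty acids, the epidermal lipoxygenases and late lipid processing. The gene tables held 37 of them among 13102 genes. Fa2h, a fatty acid hydroxylase, was not analysed here. Every library came from primary epidermal keratinocytes of newborn C57BL/6 mice, kept for 48 h in culture, and there was 1 library per group. Cells of Il17rc knockout (KO) mice, of Il17rd KO mice and of wild-type (WT) mice were given the cytokine interleukin-17A (IL-17A) at 100 ng/mL for 8 h, and the last group was WT cells without it. The series asks whether Il17rd serves as a receptor for IL-17A. KO cells without IL-17A were not analysed here, so what a genotype does and what it does to the IL-17A response cannot be told apart. The sources used here do not give how many mice a library holds, their sex or which part of each gene was deleted.

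The outer layer of the epidermis is sealed by sheets of ceramides, cholesterol and free fatty acids. Ceramides begin with the joining of serine and palmitoyl-CoA, and ceramide synthases then attach a fatty acid that the elongases have lengthened. Differentiating keratinocytes load glucosylated ceramides into lamellar bodies, secrete them, and oxidise the linoleate of the longest forms with lipoxygenases, a step needed for the lipid envelope of the cornified cell. Loss of several of these enzymes causes ichthyosis in humans.

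Total counts per library lay between 19711866 and 19904695. Levels are given as CPM, a gene's count relative to its library's total after scaling by the trimmed mean of M-values (TMM). With no replicate, no difference given here has a check against the spread between cultures, and no p-value was computed. The size rule called a gene higher or lower where the ratio was at least 2-fold and its exact 95% conditional binomial (Clopper-Pearson) interval excluded 1. The intervals, in parentheses after each ratio, cover counting error only. In the check of the labels, Il17rd had 150 counts in IL-17A Il17rc KO, 5 in IL-17A Il17rd KO, 265 in IL-17A WT and 252 in untreated WT, and Il17rc had 439, 1718, 1152 and 2729 counts in the same libraries. Il17rd was thus 55.6-fold lower (23.5 to 173) in its own knockout than in IL-17A WT. Il17rc was 2.69-fold lower (2.41 to 3.01) in its own, where transcript was still counted. Basal keratinocyte markers, 6 of 6 measured and none at 0, summed to between 31916 and 41097 CPM. Markers of other cells were present at lower sums, with 7 of 7 melanocyte markers at 1592 to 2430 CPM, 6 of 8 fibroblast markers at 149 to 226 CPM, 4 of 7 immune markers at 6.58 to 52.9 CPM and 2 of 8 sebaceous gland markers at 14.4 to 30.9 CPM.

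In WT cells given IL-17A, genes for the lipoxygenases, a secreted phospholipase, phytoceramide synthesis and an alkaline ceramidase lay lower than in untreated WT cells. Also lower were the lamellar body transporter gene Abca12, the ceramide synthase gene Cers4 and the elongase gene Elovl4. Higher were the ceramide synthase gene Cers2, the sphingomyelin synthase gene Sgms2 and the elongation genes Elovl6 and Hsd17b12. IL-17A WT had 8 of the 37 genes lower and 4 higher by the size rule than the untreated WT library. That is 21.6% lower, where 10.7% of the 12934 genes tested were, and 10.8% higher, where 8.97% were. The share called higher is close to that of all genes tested. Tested genes averaged 1 CPM or more over the 4 libraries, and all 37 passed that limit. The median log2 ratio over the genes was -0.45, against 0.00 over all genes tested, and single values ran between -5.14 and 1.76. A lower count in a culture can come from fewer cells of a type or from less RNA per cell, and bulk data do not separate them. IL-17A WT was the lowest of the 4 libraries for 21 of the 37 genes and untreated WT the highest for 21, whereas over all genes tested IL-17A WT was lowest in 30.0% and untreated WT highest in 35.2%. The annotation (GENCODE M21) limits some of these counts. Exons of 12 of the 37 genes overlap a gene on the other strand, among them Cers2, Cers4, Degs2, Acer1, Sphk1, Sphk2 and Elovl6, and the sources used here do not give the strand setting of the counting, so reads of such partners cannot be told apart. Ormdl2, Ormdl3 and Elovl6 each have a near-identical copy elsewhere in the genome, and their counts are uncertain.

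**Figure D1:**
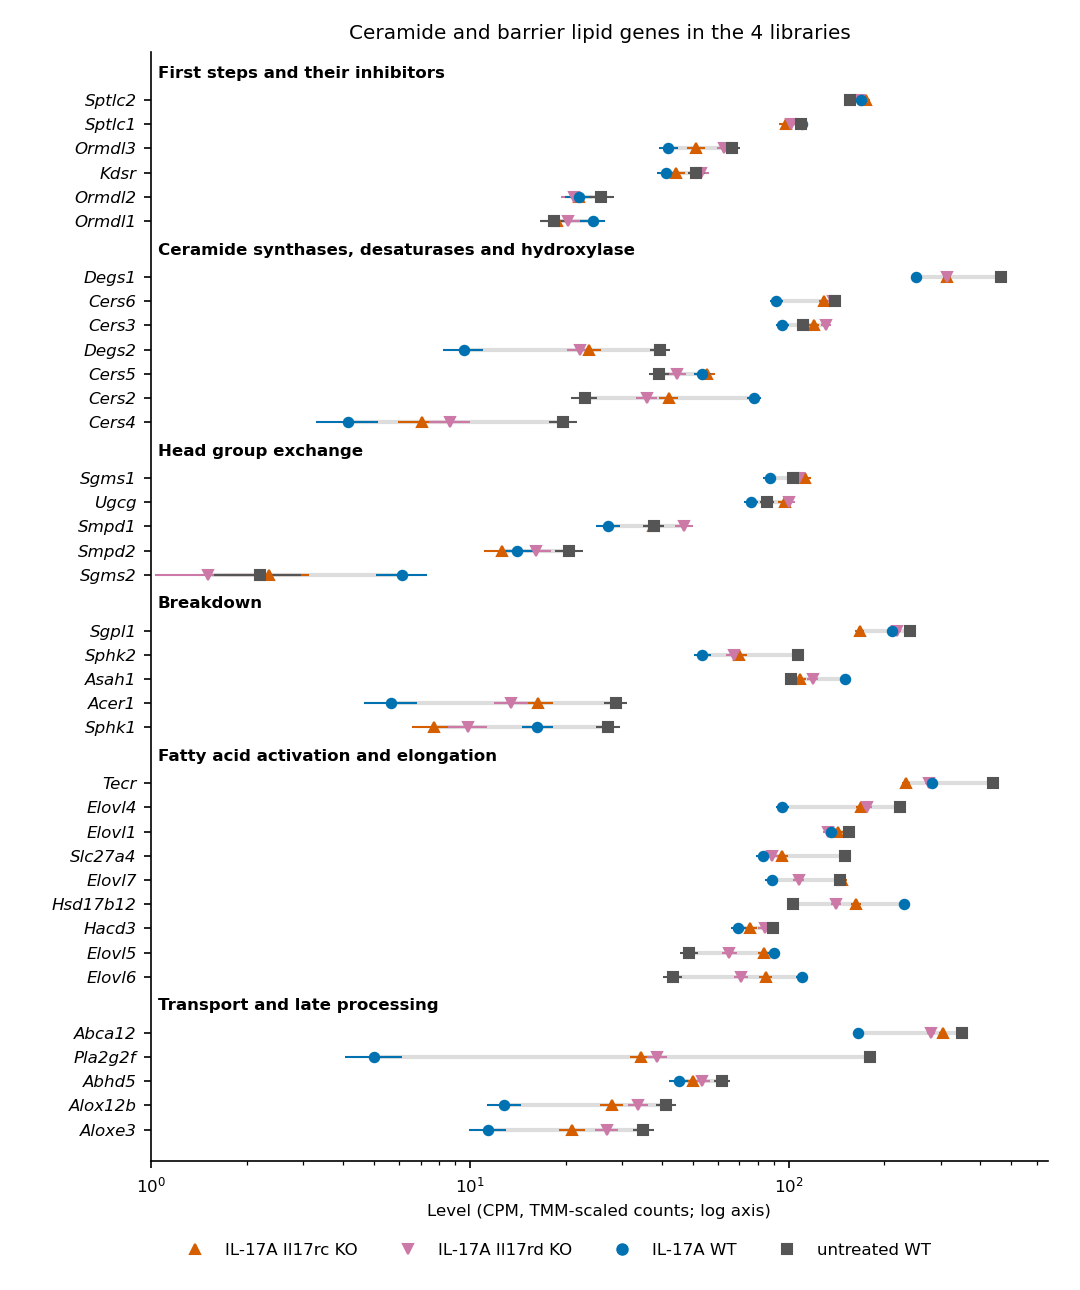
Level of each of the 37 genes in each library, in CPM on a log axis, grouped by role, with exact 95% Poisson intervals that cover counting error only; each point is 1 library. Blue circles (IL-17A WT) lie left of grey squares (untreated WT) for all 5 genes of transport and late processing, most widely for Pla2g2f, and right of them for Cers2, Sgms2, Elovl6 and Hsd17b12.

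Transport and late processing had the lowest median log2 ratio of the 6 role groups in IL-17A WT over untreated WT, at -1.61, and 4 of its 5 genes were called lower. Pla2g2f, on the minus strand at chr4:138750533-138757626 (GRCm38), encodes a secreted phospholipase of suprabasal keratinocytes. It stood at 34.4 CPM in IL-17A Il17rc KO, 38.7 CPM in IL-17A Il17rd KO, 5.01 CPM in IL-17A WT and 180 CPM in untreated WT. The 4 libraries spanned a 35.9-fold range, the widest of the 37 genes, with both knockouts between the WT libraries. It was 6.87-fold higher (5.55 to 8.58) in the Il17rc KO and 7.73-fold higher (6.26 to 9.63) in the Il17rd KO than in IL-17A WT. Against untreated WT the same knockout libraries were still 5.23-fold (4.82 to 5.68) and 4.65-fold (4.30 to 5.03) lower.

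Alox12b and Aloxe3 encode the epidermal lipoxygenases that act in sequence on acylceramide linoleate. They lie next to each other on the plus strand of chromosome 11, Aloxe3 at chr11:69125896-69149115 and Alox12b at chr11:69156989-69169792, with 7.87 kb and no protein-coding gene between them. Alox12b was at 27.8 CPM in IL-17A Il17rc KO, 33.7 CPM in IL-17A Il17rd KO, 12.8 CPM in IL-17A WT and 41.2 CPM in untreated WT. Aloxe3 was at 20.9, 26.9, 11.4 and 35.1 CPM in the same order. In both genes the libraries took the same order, with untreated WT highest and IL-17A WT lowest. Alox12b was 3.21-fold lower (2.78 to 3.72) and Aloxe3 3.08-fold lower (2.64 to 3.60) in IL-17A WT than in the untreated WT library. In the Il17rd KO they were 2.63-fold (2.27 to 3.05) and 2.36-fold (2.02 to 2.77) higher than in IL-17A WT. In the Il17rc KO Alox12b was 2.17-fold higher (1.87 to 2.53), and Aloxe3, at 1.84-fold (1.56 to 2.17), was not called. On the per-length scale of the deposited FPKM, Alox12b made up between 74.8% and 77.8% of the pair in every library.

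Abca12, the transporter that loads glucosylceramides into lamellar bodies, was the most abundant gene of this group by count. It stood at 305 CPM in IL-17A Il17rc KO, 280 CPM in IL-17A Il17rd KO, 165 CPM in IL-17A WT and 350 CPM in untreated WT. The IL-17A WT level lay apart from the other libraries, which were within 1.25-fold of each other. It was 2.12-fold lower (2.03 to 2.21) in IL-17A WT than in the untreated WT library. The ratios of 1.85 (1.77 to 1.93) in the Il17rc KO and 1.70 (1.62 to 1.77) in the Il17rd KO over IL-17A WT fell short of the size called. Abhd5, which activates lipases and is needed for acylceramide formation, was at 50.3, 53.6, 45.2 and 61.8 CPM in the libraries in that order and was not called in any comparison.

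Among the enzymes that build ceramide, Degs2 and Cers4 were lower and Cers2 higher in IL-17A WT. Degs2 encodes the desaturase and hydroxylase that makes phytoceramides. Its levels were 23.6 CPM in IL-17A Il17rc KO, 22.1 CPM in IL-17A Il17rd KO, 9.56 CPM in IL-17A WT and 39.5 CPM in untreated WT. The knockouts lay close together between the WT libraries. Degs2 was 4.14-fold lower (3.52 to 4.88) in IL-17A WT than in the untreated WT library, and it was 2.47-fold (2.08 to 2.94) and 2.31-fold (1.95 to 2.76) higher in the Il17rc and Il17rd KO than in IL-17A WT. Degs1, the general dihydroceramide desaturase, was at 315, 313, 252 and 465 CPM and was 1.85-fold lower (1.79 to 1.92) in IL-17A WT than in the untreated WT library, just short of the size called.

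Ceramide synthases differ in the fatty acid they attach. Cers2, which prefers very long chains and is widely expressed, was at 42.0 CPM in IL-17A Il17rc KO, 35.8 CPM in IL-17A Il17rd KO, 77.9 CPM in IL-17A WT and 22.9 CPM in untreated WT. IL-17A WT was highest and untreated WT lowest, so Cers2 ran opposite to Degs2. It was 3.40-fold higher (3.06 to 3.79) in IL-17A WT than in the untreated WT library and 2.17-fold lower (1.99 to 2.38) in the Il17rd KO than in IL-17A WT. In the Il17rc KO it was 1.85-fold lower (1.70 to 2.02) than in IL-17A WT and was not called. Cers4 was at 7.08, 8.67, 4.14 and 19.7 CPM in the same order of libraries, the lowest level per length in the family. It was 4.75-fold lower (3.73 to 6.12) in IL-17A WT than in the untreated WT library, and below untreated WT also in the Il17rc KO, by 2.78-fold (2.28 to 3.39), and in the Il17rd KO, by 2.27-fold (1.89 to 2.73). Its 2.09-fold higher level (1.60 to 2.76) in the Il17rd KO than in IL-17A WT is among the smallest ratios called. Cers3, which makes the ultra-long chain ceramides of the barrier, was at 120, 131, 95.6 and 111 CPM and was not called. Cers5 and Cers6, which prefer shorter chains, were not called either.

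The make-up of the ceramide synthase family differed between libraries more than its sum. The 5 genes together had 78.9 FPKM in IL-17A Il17rc KO, 78.7 in IL-17A Il17rd KO, 76.2 in IL-17A WT and 68.5 in untreated WT. Cers2 made up 14.5%, 12.4%, 27.8% and 9.07% of these sums. Cers3 made up 46.6%, 51.1%, 38.5% and 49.5%, the largest part in every library. Cers6 made up 18.4%, 19.7%, 13.5% and 23.0%. Shares rest on FPKM, for which no counting interval was computed.

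**Figure D2:**
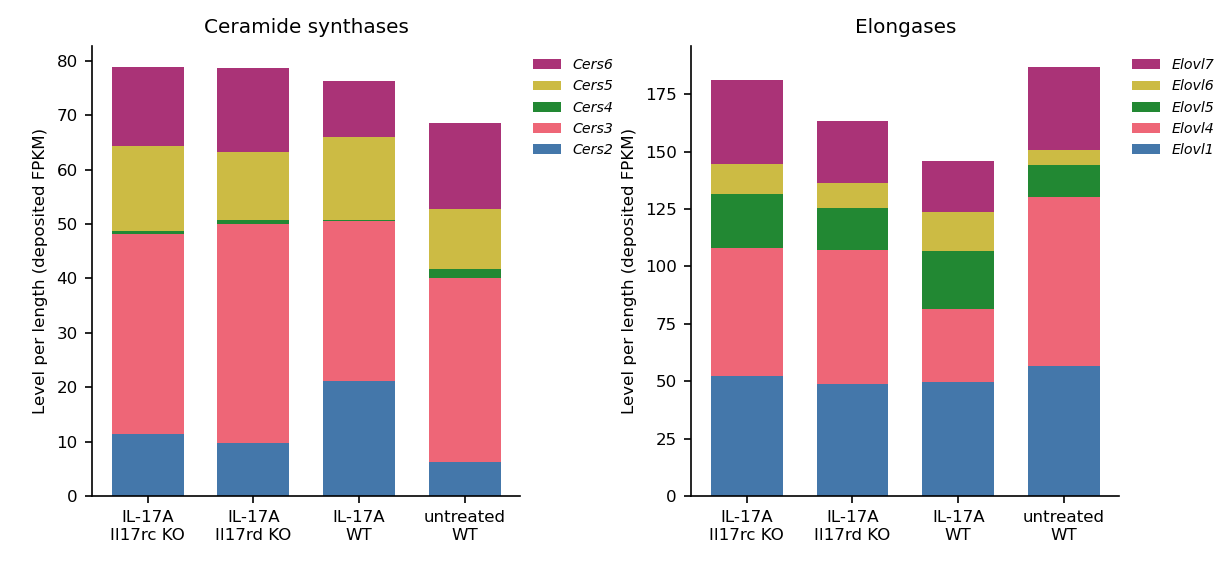
Deposited FPKM, a level per transcript length, of the 5 ceramide synthase genes (left) and the 5 elongase genes (right), stacked for each library; each bar is 1 library. Cers2 (blue, left) reaches 21.2 FPKM in IL-17A WT and 6.22 FPKM in untreated WT, and Elovl4 (red, right) 31.5 FPKM in IL-17A WT and 73.8 FPKM in untreated WT.

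Of the 9 genes for fatty acid activation and elongation 1 was lower and 2 were higher by the size rule in IL-17A WT than in the untreated WT library, and 6 of the 9 ratios were below 1. Elovl4, which makes the ultra-long fatty acids of barrier ceramides, was at 169 CPM in IL-17A Il17rc KO, 176 CPM in IL-17A Il17rd KO, 95.6 CPM in IL-17A WT and 224 CPM in untreated WT. Elovl6, which extends palmitate, was at 84.7, 70.8, 110 and 43.3 CPM in the same order. Hsd17b12, the ketoacyl-CoA reductase of the elongation cycle, was at 163, 141, 230 and 103 CPM. IL-17A WT was the lowest library for Elovl4 and the highest for Elovl6 and Hsd17b12. Elovl4 was 2.34-fold lower (2.22 to 2.47), Elovl6 2.54-fold higher (2.34 to 2.76) and Hsd17b12 2.23-fold higher (2.12 to 2.36) in IL-17A WT than in the untreated WT library. Tecr, the enoyl-CoA reductase of the same cycle, was at 234, 276, 282 and 438 CPM, with untreated WT alone at the top, and was not called. Elovl5, Elovl7, Hacd3 and Slc27a4 were not called in these comparisons either. None of the 9 genes of fatty acid activation and elongation was called in either knockout against IL-17A WT. Of all genes tested 11.1% were called in the Il17rc KO and 10.0% in the Il17rd KO. At such shares 9 genes would hold few calls or none. Over the 5 elongase genes Elovl4 made up 30.7% of the summed FPKM in IL-17A Il17rc KO, 35.7% in IL-17A Il17rd KO, 21.6% in IL-17A WT and 39.5% in untreated WT, while Elovl6 made up 7.25%, 6.73%, 11.7% and 3.60%. Elovl1, which supplies saturated very long chains, differed little, at 143, 133, 136 and 154 CPM. Its exons overlap those of Cdc20, a cell cycle gene on the other strand, and with the strand setting not given, reads of these genes cannot be told apart.

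Of the 5 genes for head group exchange Sgms2 was called, and of the 5 for breakdown Acer1 and Sphk1 were. Sgms2, a sphingomyelin synthase, had the lowest level per length of all 37 genes, with 47 counts in IL-17A Il17rc KO, 31 in IL-17A Il17rd KO, 120 in IL-17A WT and 42 in untreated WT. IL-17A WT stood above the other libraries, whose Poisson intervals overlap. It was 2.80-fold higher (1.95 to 4.08) in IL-17A WT than in the untreated WT library, and 2.62-fold (1.85 to 3.75) and 4.06-fold (2.72 to 6.24) lower in the Il17rc and Il17rd KO than in IL-17A WT. Sgms1, its more abundant relative, was at 113, 108, 87.3 and 103 CPM and was not called. Ugcg, the glucosylceramide synthase, and the sphingomyelinase genes Smpd1 and Smpd2 were not called in any comparison either.

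Acer1, an alkaline ceramidase of differentiating epidermis, was at 16.3 CPM in IL-17A Il17rc KO, 13.5 CPM in IL-17A Il17rd KO, 5.67 CPM in IL-17A WT and 28.7 CPM in untreated WT. It took the same order as Degs2. Acer1 was 5.06-fold lower (4.12 to 6.26) in IL-17A WT than in the untreated WT library, and 2.88-fold (2.31 to 3.60) and 2.38-fold (1.90 to 2.99) higher in the Il17rc and Il17rd KO than in IL-17A WT. Asah1, the lysosomal acid ceramidase, was at 109, 119, 151 and 102 CPM, highest in IL-17A WT, and was not called. Sphk1, a kinase that makes sphingosine phosphate, had its own order, at 7.73, 9.84, 16.3 and 27.1 CPM. Both knockouts lay below both WT libraries. Sphk1 lay 2.11-fold lower (1.74 to 2.57) in the Il17rc KO than in IL-17A WT, and against untreated WT it was 3.51-fold (2.93 to 4.23) lower in the Il17rc KO and 2.76-fold (2.34 to 3.26) lower in the Il17rd KO. Its relative Sphk2, at 70.1, 67.2, 53.6 and 106.8 CPM, was 1.99-fold lower (1.85 to 2.15) in IL-17A WT than in the untreated WT library, just under the size called.

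None of the 6 genes for the first steps of the pathway and their inhibitors was called in any of the 6 comparisons. Of all genes tested between 4.24% and 19.7% were called in each comparison, and at such shares 6 genes would hold few calls or none. Sptlc1 and Sptlc2, the large subunits of serine palmitoyltransferase, differed by no more than 1.12-fold over the 4 libraries, with Sptlc1 at 97.9, 101.7, 110 and 109 CPM and Sptlc2 at 175, 167, 169 and 156 CPM. Among the inhibitors of that enzyme, Ormdl3 spanned the widest range, at 51.3, 62.8, 42.0 and 66.5 CPM. Across all role groups 24 of the 37 genes were called in none of the first 3 comparisons. Their highest library was between 1.12-fold and 1.99-fold above their lowest. Of all genes tested 19.7%, 11.1% and 10.0% were called in these comparisons taken singly. The shares of all genes called in none or in all of the 3 were not computed, so the 24 have no background beside them.

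Both knockouts given IL-17A were set against IL-17A WT, the comparison that bears on each receptor chain. These comparisons share the IL-17A WT library with each other and with the comparison of the WT libraries, so a value particular to that library enters all of them. In the Il17rc KO 4 of the 37 genes were higher and 2 lower, or 10.8% and 5.41%, where 6.22% and 4.84% of all genes tested were called. In the Il17rd KO 6 were higher and 2 lower, or 16.2% and 5.41%, where 6.27% and 3.73% were called. The lower counts are close to the background in both. The median log2 ratio was 0.15 in the Il17rc KO and 0.27 in the Il17rd KO, where all genes tested had medians of 0.04 and 0.01. In transport and late processing the medians over its 5 genes were 0.88 and 1.23.

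**Figure D3:**
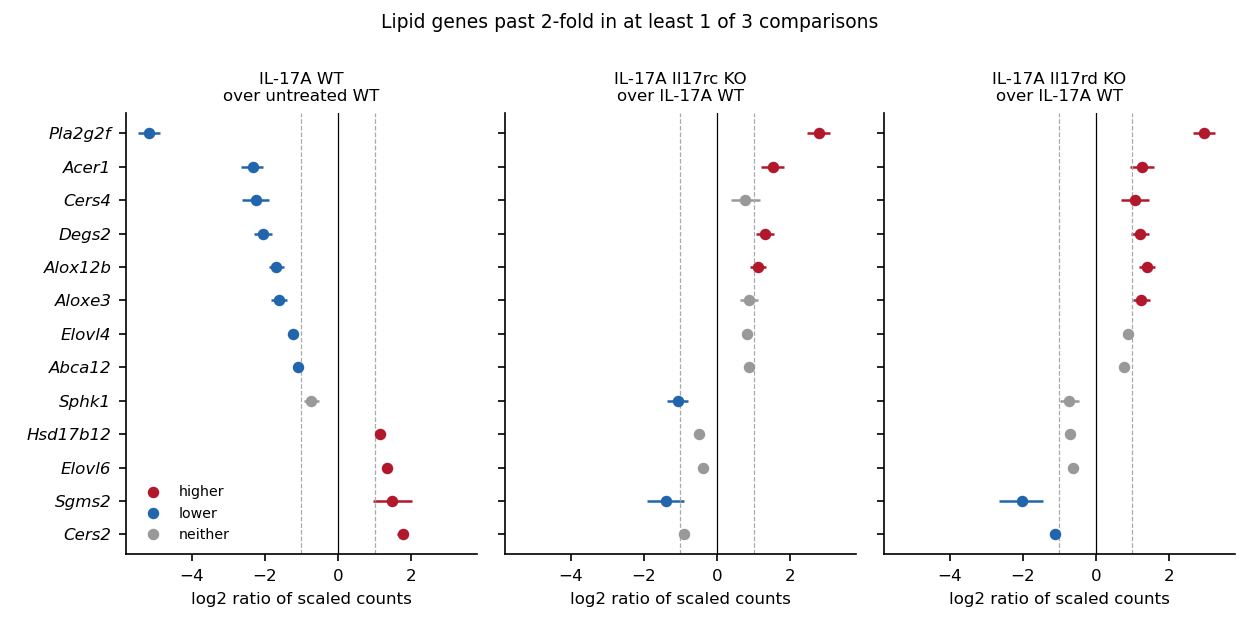
Log2 ratio of TMM-scaled counts for the 13 genes called in at least 1 of the 3 comparisons shown, each panel setting 1 library over another, with exact 95% intervals for counting error; dashed lines mark 2-fold. The 8 genes at the top are lower in IL-17A WT than in the untreated WT library and lie right of 0 in both knockout panels, and the 4 at the bottom, higher in IL-17A WT, lie left of 0 there; the IL-17A WT library is in all 3 panels.

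Set directly against each other, the Il17rc KO and the Il17rd KO differed in none of the 37 genes by the size rule, where the Il17rc KO had 1.49% of all genes tested higher and 2.75% lower, or 4.24% in all. The widest difference was in Sgms2, 1.55-fold higher (0.97 to 2.53) in the Il17rc KO, with a log2 ratio of 0.60. The other log2 ratios reached down to -0.39, for Sgpl1, the sphingosine phosphate lyase, at 167 CPM in the Il17rc KO and 219 CPM in the Il17rd KO. The counting interval excluded 1 for 24 of the 37 genes, and for 33 it lay wholly within 1.5-fold in either direction. Over all 12934 genes tested it excluded 1 for 6662 and lay within 1.5-fold for 8587. Without replicates this does not show that the genotypes act alike.

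Against untreated WT, a few of these genes were lower and none higher in the knockouts given IL-17A. In the Il17rc KO Cers4, Sphk1 and Pla2g2f were lower, or 8.11% of the genes where 7.00% of all genes tested were, which is close. In the Il17rd KO the same genes and Acer1, at 2.13-fold (1.84 to 2.47), were lower, or 10.8% where 3.35% were. None was higher, where 7.27% of all genes tested were in the Il17rc KO and 5.36% in the Il17rd KO. Calls in either direction took 8.71% of all genes tested in the Il17rd KO and 14.3% in the Il17rc KO.

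Pla2g2f, Acer1, Degs2, Alox12b and Sgms2 were called in all of the first 3 comparisons, and the bases before their start are printed to show what these promoters hold, from RefSeq on GRCm38.p6, 5' to 3' along the gene. The search covered the 250 bases before the RefSeq start. RefSeq and GENCODE differ in where genes start, and the last 83 bases of this window for Alox12b, 28 for Pla2g2f and 9 for Degs2 lie inside the gene by GENCODE, so they are not printed. Capitals mark matches to the letters GCCNNNGGC, bound by AP-2 factors, TGANTCA, bound by AP-1, CCACACCC, bound by Kruppel-like factors, or AACCGGTT, bound by grainyhead-like factors, searched on both strands. All but Sgms2 were lower in IL-17A WT, and Sgms2 was higher there.
Pla2g2f, chr4:138757627-138757848, minus strand: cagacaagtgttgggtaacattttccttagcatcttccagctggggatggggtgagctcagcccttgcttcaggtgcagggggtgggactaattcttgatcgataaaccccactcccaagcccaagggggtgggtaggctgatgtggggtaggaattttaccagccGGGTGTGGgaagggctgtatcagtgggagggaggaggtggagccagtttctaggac
Acer1, chr17:56982127-56982376, minus strand: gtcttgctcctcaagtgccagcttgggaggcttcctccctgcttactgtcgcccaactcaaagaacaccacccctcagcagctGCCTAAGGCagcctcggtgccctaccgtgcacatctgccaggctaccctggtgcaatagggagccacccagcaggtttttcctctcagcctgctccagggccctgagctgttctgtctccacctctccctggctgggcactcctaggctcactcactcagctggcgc
Degs2, chr12:108702316-108702556, minus strand: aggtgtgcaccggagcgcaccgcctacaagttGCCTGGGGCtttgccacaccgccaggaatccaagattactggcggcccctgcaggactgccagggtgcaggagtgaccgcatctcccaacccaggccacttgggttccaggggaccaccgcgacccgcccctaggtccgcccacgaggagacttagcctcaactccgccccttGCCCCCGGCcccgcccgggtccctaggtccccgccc
Alox12b, chr11:69156822-69156988, plus strand: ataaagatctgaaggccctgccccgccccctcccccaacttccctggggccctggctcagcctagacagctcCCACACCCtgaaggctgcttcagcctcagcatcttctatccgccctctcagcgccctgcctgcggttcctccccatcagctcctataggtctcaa
Sgms2, chr3:131491444-131491693, minus strand: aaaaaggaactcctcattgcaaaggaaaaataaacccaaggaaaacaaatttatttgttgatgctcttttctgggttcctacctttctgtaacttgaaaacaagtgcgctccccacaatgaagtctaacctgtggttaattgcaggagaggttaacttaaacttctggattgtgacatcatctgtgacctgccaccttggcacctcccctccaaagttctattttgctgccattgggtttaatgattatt
The window of Degs2 held 2 AP-2 matches, that of Acer1 held 1, and those of Alox12b and Pla2g2f held 1 AP-2 and 1 Kruppel-like match each. The AP-2 matches of Alox12b and Pla2g2f lie in the bases not printed, inside the gene by GENCODE. No letters matched in the window of Sgms2 shown, the first of its 6 listed starts, but others of its windows held the AP-2 and AP-1 letters. Windows were found for 35 of the 37 genes, and 8 of the 35, or 22.9%, held the AP-2 letters. Of the 4 genes higher in IL-17A WT than in the untreated WT library, Sgms2 held them. Of the 8 genes lower in IL-17A WT than in the untreated WT library, 7 had a window and 5 of these held the AP-2 letters, namely Acer1, Alox12b, Degs2, Elovl4 and Pla2g2f. Among all genes tested that had a window 24.3% held them, among those called lower in IL-17A WT 22.8% did, and among all genes with a RefSeq window 15.4% did. The windows of the 7 genes had a median GC content of 63.2%, against 60.0% over the genes tested. The AP-1 letters were in 0 of the 7 windows, in 5.71% of the genes tested and in 8.86% of those called lower in IL-17A WT, the Kruppel-like letters in 2 of the 7, in 4.29% and in 5.97%, and the grainyhead-like letters in 0.254% of the genes tested and, among the 37, in Sgms1. No match printed overlaps another. A match shows the letters only, not that a factor binds there.

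Pathway genes outside the 38 were followed through a list of 50, of which 44 were in the tables. By the size rule IL-17A WT had 14 of them lower and 2 higher than the untreated WT library, and the median log2 ratio was -0.34. These are 31.8% lower and 4.55% higher, where 10.7% and 8.97% of all genes tested were. Against IL-17A WT the Il17rc KO had 10 of them higher and 4 lower, and the Il17rd KO 10 higher and 3 lower. That is 22.7% higher in each, where 6.22% and 6.27% of all genes tested were, and 9.09% and 6.82% lower, where 4.84% and 3.73% were. Several of them act on the same acylceramides as the lipoxygenases. Cyp4f39, the mouse counterpart of the human fatty acid hydroxylase that forms acylceramides, was at 19.1 CPM in IL-17A Il17rc KO, 20.4 CPM in IL-17A Il17rd KO, 6.08 CPM in IL-17A WT and 31.6 CPM in untreated WT, and was 5.19-fold lower (4.26 to 6.37) in IL-17A WT than in the untreated WT library. Sdr9c7, a dehydrogenase acting on the lipoxygenase products, was at 39.3, 41.0, 16.5 and 74.5 CPM and was 4.53-fold lower (4.01 to 5.13). Both took the order seen in Alox12b, with IL-17A WT lowest and untreated WT highest.

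Sptlc3, an alternative large subunit of serine palmitoyltransferase, contrasted with the level values of Sptlc1 and Sptlc2. It was at 9.62 CPM in IL-17A Il17rc KO, 9.45 CPM in IL-17A Il17rd KO, 1.84 CPM in IL-17A WT and 13.5 CPM in untreated WT, and was 7.32-fold lower (5.15 to 10.7) in IL-17A WT than in the untreated WT library. It made up 6.45%, 6.32%, 1.23% and 8.66% of the FPKM of the 3 large subunit genes. Smpd3, a neutral sphingomyelinase, was at 51.6, 68.8, 18.0 and 92.3 CPM in the same order of libraries. Lipm, a lipase of differentiating keratinocytes, was at 31.0, 39.8, 12.1 and 67.1 CPM. Both had IL-17A WT lowest and untreated WT highest, and they were 5.13-fold (4.58 to 5.77) and 5.54-fold (4.82 to 6.39) lower in IL-17A WT than in the untreated WT library. Abca1, a cholesterol exporter, was at 23.8, 35.9, 10.5 and 64.2 CPM and was 6.12-fold lower (5.28 to 7.14). Psap, the precursor of the saposins that help lysosomal enzymes degrade sphingolipids, did not take the order of the others. It was at 838 CPM in IL-17A Il17rc KO, 1247 CPM in IL-17A Il17rd KO, 1027 CPM in IL-17A WT and 4880 CPM in untreated WT, so all 3 libraries given IL-17A lay far below the one without it. On the higher side Acsl4, an acyl-CoA synthetase for polyunsaturated fatty acids, was at 80.6, 59.6, 202 and 36.1 CPM and was 5.60-fold higher (5.16 to 6.08) in IL-17A WT than in the untreated WT library.

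**Figure D4:**
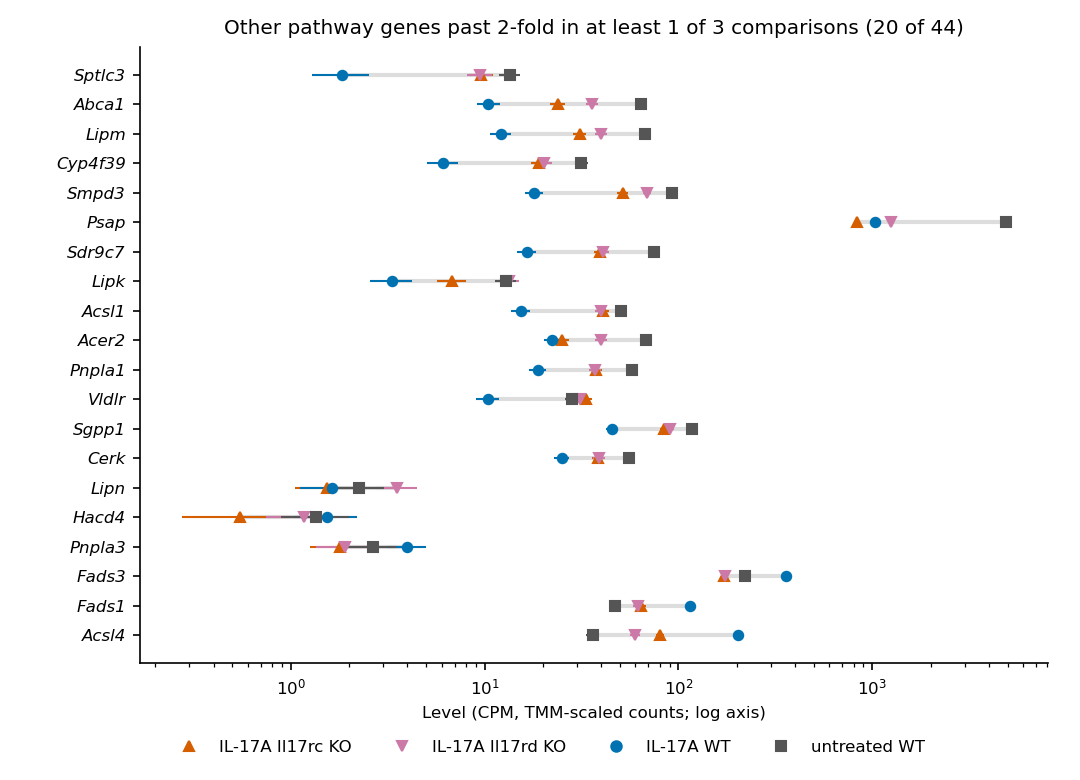
Level in CPM, on a log axis, of the 20 of 44 other pathway genes called in at least 1 of the first 3 comparisons, sorted by the ratio of IL-17A WT to untreated WT, with exact 95% Poisson intervals for counting error; each point is 1 library. Sptlc3, Abca1, Lipm and Cyp4f39 are at the top with IL-17A WT lowest, Psap has untreated WT alone on the right, and Acsl4 at the bottom has IL-17A WT highest.

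Most markers of differentiation differed in the directions of the 8 lipid genes called lower in IL-17A WT, opposite to the 4 called higher. Of 12 spinous and granular markers 11 were lower and none higher in IL-17A WT than in the untreated WT library, and the median log2 ratio was -3.44. In the Il17rc KO and in the Il17rd KO 11 of the 12 were higher than in IL-17A WT, with medians of 2.95 and 3.06. Their summed level was 2459 CPM in IL-17A Il17rc KO, 2853 CPM in IL-17A Il17rd KO, 578 CPM in IL-17A WT and 6518 CPM in untreated WT, with none at 0. The 37 lipid genes summed to 3365, 3397, 3065 and 4083 CPM in the same order, a much narrower range. Cell cycle markers ran another way, with 8 of 8 higher in IL-17A WT than in the untreated WT library and sums of 1998, 1189, 1057 and 412 CPM. Of the 6 fibroblast markers 5 were lower in IL-17A WT than in the untreated WT library, with a median log2 ratio of -3.04. In each knockout 4 were higher than in IL-17A WT, with medians of 2.11 in the Il17rc KO and 2.94 in the Il17rd KO, and 1 had a ratio below 1. Their sums ran otherwise, at 149 CPM in IL-17A Il17rc KO, 183 CPM in IL-17A Il17rd KO, 186 CPM in IL-17A WT and 226 CPM in untreated WT. Of the 4 immune markers 3 were lower in IL-17A WT than in the untreated WT library, with a median of -1.19. Against IL-17A WT 3 were lower and 1 higher in the Il17rc KO. In the Il17rd KO 1 was higher and none lower. All 7 melanocyte markers had ratios below 1 in IL-17A WT over untreated WT, and 1 was called lower. The part of cell make-up in the values above was not tested.

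**Figure D5:**
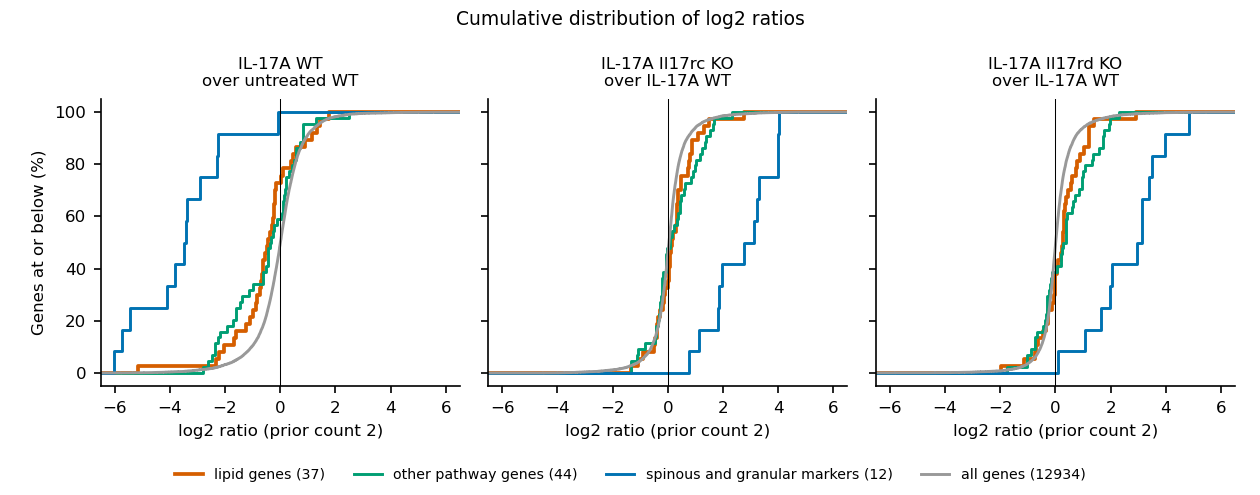
Cumulative share of genes, in percent, at or below each log2 ratio (prior count 2) in 3 comparisons, for the 37 lipid genes, the 44 other pathway genes, the 12 spinous and granular markers and all 12934 genes tested. In IL-17A WT over untreated WT the lipid genes had a median of -0.45, between 0.00 for all genes and -3.44 for the markers. Among the higher ratios they did not lie between, as 10.8% of the lipid genes and 8.97% of all genes were called higher.

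Per length, the most abundant of the 37 genes were Tecr and Degs1, with means over the 4 libraries of 140 and 130 FPKM. The least abundant were Cers4 and Sgms2, at 0.80 and 0.49 FPKM.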

How the data were processed

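Per the labels' protocols, total RNA was extracted with Trizol and libraries were built by a sequencing company. The submitters' processing notes name Trim Galore 0.4.4, HISAT2, Subread with featureCounts, edgeR and genome build mm10. The sources used here do not give the annotation or strand setting. The authors deposited raw counts, whole and not normalized. The FPKM values deposited by the authors served for levels per length. TMM factors came from edgeR 4.0.16 over the 4 libraries. Log2 ratios used a prior count of 2. The rule of size was tested on simulated data with counting error only. That simulation held no spread between cultures, so it does not check the calls against such a spread. The members and lists were chosen with earlier results of these data known. Values in every library are given for members called in the first 3 comparisons, for the most abundant others of each role group and for some others chosen after their values were seen. Of the other pathway genes the 8 with the largest log2 ratio in size are named. Symbols were matched to GENCODE M21 (GRCm38). A near-identical copy matched at 95% identity or more over at least 200 bases and 50% of the shorter transcript (BLAST+ 2.17.0). The intervals cover counting error only. No molecular identifiers are named, so copies of the same molecule cannot be told from separate reads, and the intervals may be too narrow. Of the deposited symbols 17 read as dates, and no member has such a symbol.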

Additional observations from a re-analysis of the deposited data

How the results depend on the processing

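Every count of calls was the same when a wider counting interval was used and with DESeq2 size factors (DESeq2 1.42.0). Dropping the filter on low counts could not change them, because all 37 genes passed it. With library totals in place of TMM, Elovl6 became the 1 gene higher in the Il17rc KO than in untreated WT and Acer1 lost its call in the Il17rd KO, and the median of all genes tested moved by 0.11 (log2) in the Il17rd KO over untreated WT. A minimum mean of 10 CPM removes Sgms2 and Cers4, which left 1 gene lower in each knockout against IL-17A WT. The fold required moved the most counts. Shares over all genes tested were computed at 2-fold only, so the counts at 1.5-fold and 3-fold have no background beside them. At 1.5-fold, 16 genes were lower in IL-17A WT than in the untreated WT library, 9 were higher in the Il17rc KO than in IL-17A WT, and in the Il17rd KO 10 were higher and 5 lower. Against untreated WT it gave 4 higher and 10 lower in the Il17rc KO, and 2 higher and 8 lower in the Il17rd KO. At 3-fold, 1 gene was higher in IL-17A WT than in the untreated WT library, 1 was higher and 0 lower in the Il17rc KO than in IL-17A WT, in the Il17rd KO 1 was higher and 1 lower, and 1 was lower in the Il17rd KO than in untreated WT. Medians of the log2 ratios kept their sign under all 7 alternatives tried for them, but several could hardly move them. Dropping the filter added none of the genes, and the deposited FPKM carry the same scaling between libraries. A changed prior count is small beside most of the counts. No paired analysis was possible because each group has 1 library, and for the same reason no replicate could be left out. Sgms2, with 31 to 120 counts, has the fewest counts, and depth limits its ratios most.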
